A study of Rattus norvegicus with 20 samples.

Results

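RNA-seq was used to ask whether stimulation of the motor cortex changed gene expression in the spinal cord caudal to a cervical injury. The comparison used the 4 libraries of region 5, the section of cord below the lesion, out of 20 libraries in the series: 2 from stimulated rats and 2 from unstimulated controls, 1 library per animal. All 4 animals were adult female wild-type Long-Evans rats, an outbred laboratory strain, about 6 to 8 months old and weighing 275 to 350 g. Every animal, controls included, had a hemicontusion at cervical level 4 with a displacement of 0.7 mm and, 2 weeks later, an electrode array placed in the motor cortex contralateral to the injury. In every animal the current that evoked a forelimb movement was tested 1 week after the implant, with pulses given through the wires. Stimulated animals then received cortical stimulation for 1 week, 5 h per day at 10 Hz. It ran in periods of 5 min on and 2 min off, at 80% of the current that evoked a forelimb movement. Controls were connected without current during that week. The sample labels place region 5 at about cervical levels 4 to 6 and the design text at about levels 5 to 7. The other regions were white matter under the implant (region 1) and on the opposite side (region 2), the cord rostral to the injury (region 3) and the lesion (region 4).

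The corticospinal tract runs from the motor cortex to the cord and acts mostly on interneurons, which in turn drive motor neurons. The cord also receives the central axons of sensory neurons, whose cell bodies lie outside it in the dorsal root ganglia, next to the vertebral canal. Where the dorsal roots leave the cord, myelin made by oligodendrocytes gives way to myelin made by Schwann cells, and the cord is wrapped in meninges rich in fibroblasts. RNA from a dissected segment can therefore hold transcripts of cord neurons and glia, of root Schwann cells, of meningeal cells and of any ganglion tissue taken with it.

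Values are FPKM, a measure of expression scaled by transcript length and by the number of mapped fragments, with 0.1 as the lowest value in the table. In each library of region 5, between 13181 and 13546 genes reached 1 FPKM. The correlation of log2 values between any 2 of the 4 libraries was between 0.979 and 0.983 across genes. A correlation does not register a shift in scale. The median log2 value over the genes tested was 2.65 and 2.48 in the controls and 2.56 and 2.69 in the stimulated animals. Chat, which makes acetylcholine in motor neurons, was between 10.7 and 12.7 FPKM in the 4 libraries and at most 0.522 FPKM in white matter. Hoxc9, a patterning gene of the lower cervical and thoracic cord, was between 2.56 and 4.5 FPKM in region 5 and at most 0.350 FPKM in any other region. Hoxc8 was between 16.4 and 20.3 FPKM in region 5 and between 2.00 and 8.13 FPKM at the lesion, with stimulated and control values overlapping in region 5. Of 5 tested Hox genes of thoracic and lumbar identity, 0 were higher and 1 lower in both stimulated animals, against 18.5% and 6.07% of all genes. Their median log2 fold change was -0.13, and none was positive. The list summed to 51.1 and 43.7 FPKM in the controls and to 42.8 and 41.6 FPKM in the stimulated animals. Whether the segments of the 2 groups matched in level was not tested.

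Stimulated and control animals differed little in most genes. Of 15210 genes tested, 1 rose (0.00657%) and 2 fell (0.0131%) at an adjusted p under 0.05 (limma with Benjamini-Hochberg adjustment), and at an unadjusted p under 0.05 there were 452 higher genes (2.97%) and 94 lower genes (0.618%). The median log2 fold change over all genes was 0.05. With 2 animals a side, both stimulated values lay above both control values for 18.5% of genes and below both for 6.07%, and these shares are the background for the gene lists. After quantile normalization the shares were 18.4% and 20.3%, and after upper-quartile scaling 28% and 12.8%. An exact permutation test of 2 against 2 cannot give a two-sided p below 0.333, so single genes rest on limma, which borrows the spread of other genes.

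The lists with the largest shares of members higher in both stimulated animals were those of sensory ganglion neurons, Schwann cells and fibroblasts of the meninges. Of 25 sensory neuron genes, 22 were higher in both stimulated animals than in both controls and none was lower, against 12.2% higher and 4.31% lower among all 30443 genes listed, many of which sit at 0.1 in every library. The corresponding counts were 14 of 15 for Schwann cell and peripheral myelin genes and 18 of 30 for fibroblast and meningeal genes, again with 0 lower in both. In a piece of tissue, more cells of a type and more RNA per cell cannot be told apart. The plot of members by list shows where these 3 lists stand among all 39.

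**Figure D1:**
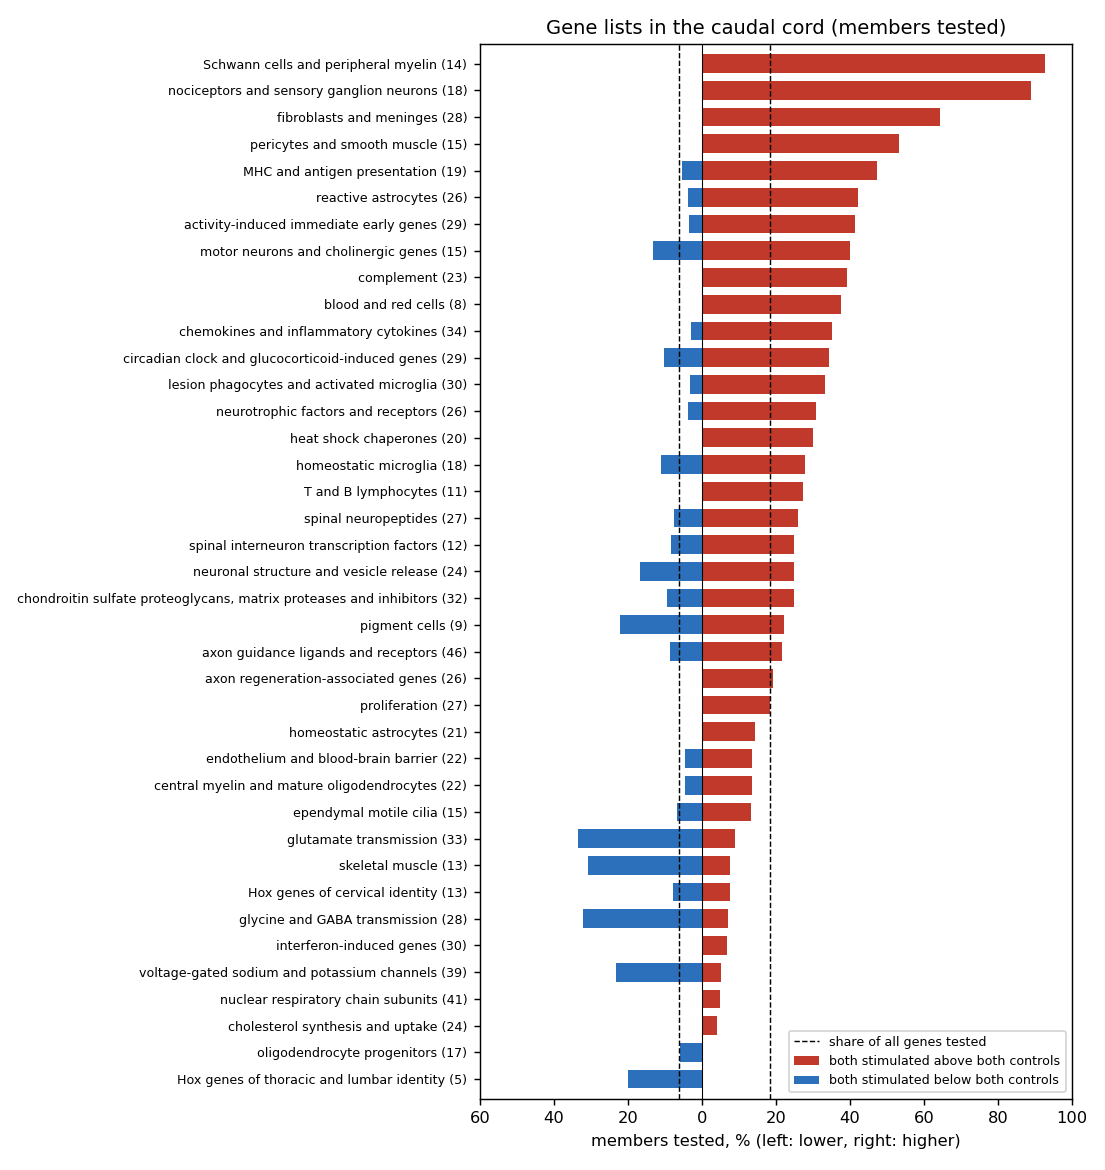
Share of the tested members of each of 39 gene lists (x axis, %) with both stimulated values above both control values (right, red) or below both (left, blue) in the caudal cord, with the number of members tested in brackets. Dashed lines mark the shares of all genes tested, 18.5% and 6.07%. Some members were tested only because they reached 1 FPKM in the stimulated caudal cord: 7 of 18 sensory, 2 of 15 motor neuron, 1 of 9 pigment and 1 of 15 ependymal members. Schwann cell, sensory neuron and fibroblast lists extend farthest to the right, and glutamate and glycine and GABA lists farthest to the left.

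The sensory neuron genes that differed most encode ion channels and receptors of nociceptors, the neurons that sense pain and temperature. Trpv1, the receptor for capsaicin and noxious heat, was at 0.499 and 0.388 FPKM in the controls and at 1.22 and 2.13 FPKM in the stimulated animals. Both stimulated values lay above the range of the other 18 libraries, 0.268 to 0.512 FPKM. The log2 fold change was 1.87 ± 0.33 (SE, n = 2 a side) and its adjusted p, by limma, was 0.797. Scn10a, a voltage-gated sodium channel of nociceptors, was at 0.1 FPKM in both controls and at 1.32 and 2.39 FPKM in the stimulated animals. It was at 0.1 FPKM in all of the other 18 libraries, so the stimulated values were at least 13.2-fold and 23.9-fold higher than the controls. Scn11a, a related channel, was at 0.1 and 0.1 FPKM against 1.41 and 2.92 FPKM, and it too was at 0.1 FPKM in every other library.

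Avil encodes advillin, an actin-binding protein of sensory neurons. It was at 0.372 and 0.236 FPKM in the controls and at 4.03 and 7.92 FPKM in the stimulated animals, which gave a log2 fold change of 4.25 ± 0.44 (SE), and its highest value outside the stimulated caudal cord was 0.402 FPKM. P2rx3, an ATP-gated channel of nociceptors, was at 0.259 and 0.383 FPKM against 2.46 and 4.69 FPKM (log2 fold change 3.43 ± 0.41). The groups did not overlap for any of these genes, and for each the stimulated animal with the higher value was the same, stimulated 2. In the limma fit of region 5 alone the lowest adjusted p of any member was 0.207. A model of all 20 libraries takes the spread from every region and treats the libraries of an animal as independent. In its limma fit 18 of 15210 genes passed. Among them were 4 members, Scn11a and Avil with an adjusted p of 0.00875, Scn10a with 0.0107 and P2rx3 with 0.0318. All 4 reached 1 FPKM in the stimulated caudal cord alone, so they entered the test through the group where they were high, and these calls are a description.

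Genes that sensory neurons share with cells of the cord differed less. Calca, which encodes the neuropeptide CGRP and is also made by motor neurons, was at 32.7 and 37.1 FPKM in the controls and at 38.7 and 53.1 FPKM in the stimulated animals, which gave a log2 fold change of 0.38 ± 0.19 (SE). Tac1, the precursor of substance P, was at 13.1 and 15.7 FPKM against 16.9 and 19.2 FPKM (0.33 ± 0.13). Prph, an intermediate filament of peripheral and motor neurons, was at 57.4 and 56.6 FPKM against 72.3 and 80.0 FPKM (0.42 ± 0.10). The stimulated values of all 3 genes lay above both controls by less than 1.5-fold on average. Isl1, a homeodomain factor of sensory and motor neurons, was at 0.522 and 0.495 FPKM against 1.17 and 1.04 FPKM (1.12 ± 0.13), and the related Isl2 was at 0.820 and 0.866 FPKM against 2.05 and 1.98 FPKM (1.26 ± 0.14). Both Isl1 and Isl2 reached 1 FPKM in the stimulated caudal cord alone, so they entered the test through the group where they were high.

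Of the 25 sensory members, 18 reached 1 FPKM in some library and were tested, and 7 of these, Trpv1, Scn10a, Scn11a, P2rx3, Trpa1, Isl1 and Avil, reached it in the stimulated caudal cord alone, so that they entered the test through the group where they were high. Among the other 11, both stimulated values were higher for 9 and lower for 0, with a median log2 fold change of 0.42. The 7 members never at 1 FPKM stayed at or under 0.923 FPKM, and 6 of them were also higher in both stimulated animals. The summed FPKM of the list was 142 and 145 in the controls and 185 and 225 in the stimulated animals. In the plot of sums by region, no other library lies above the caudal controls.

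**Figure D2:**
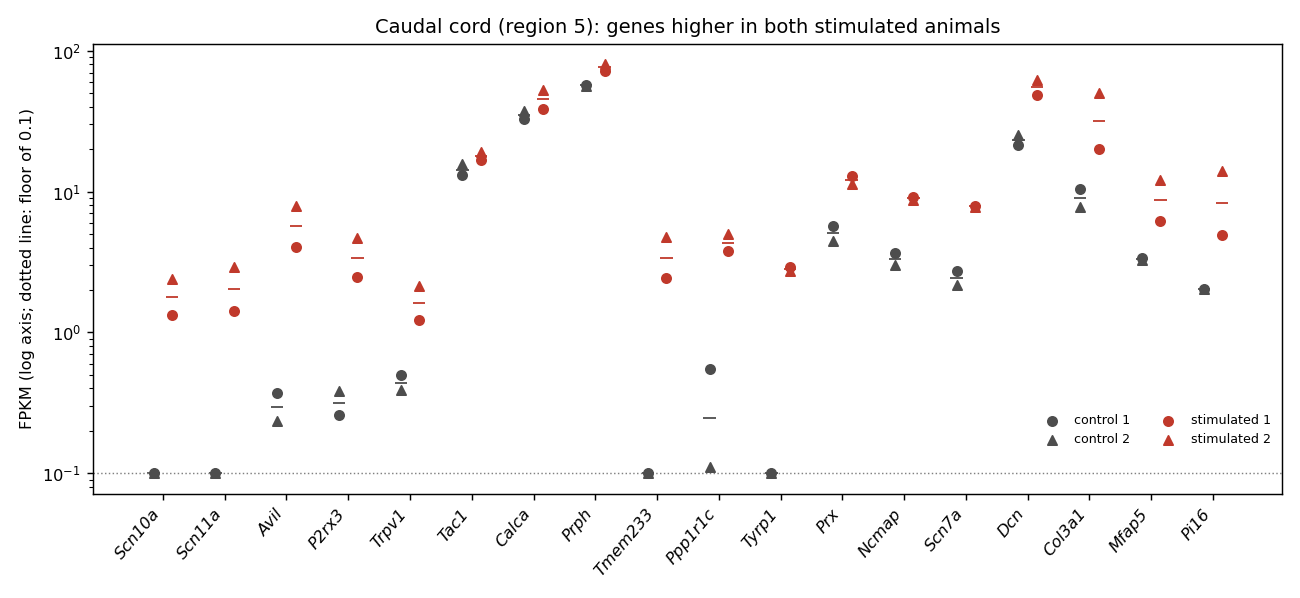
FPKM in the 4 caudal cord libraries (y axis, log scale) of 18 genes that were higher in both stimulated animals; grey points are controls, red points stimulated animals, circles replicate 1, triangles replicate 2 and short lines the mean of the log2 values. Scn10a, Scn11a, Tmem233 and Tyrp1 sit on the floor of 0.1 FPKM in both controls, and the stimulated values of Scn7a, 7.88 and 7.81 FPKM, nearly coincide.

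The promoters of 3 of these nociceptor genes are printed because the members were higher together, with that of Tyrp1 for comparison. They come from RefSeq (build GRCr8, 250 bases before to 50 after the annotated start) and run 5′ to 3′ on the gene's strand. Of 7 genes looked up, 6 had an entry. Capitals mark TGTGGT on either strand, the core bound by RUNX factors, which act in nociceptor development, or CATGTG on either strand, an E-box of the kind bound by MITF, the pigment cell regulator. The promoters of Scn11a and P2rx3, not printed, held no TGTGGT, so 2 of the 5 nociceptor promoters held it. TAATTA, a homeodomain core, was also searched and found in none of the 6. Of all 33469 promoters of the same length, 17.3% held TGTGGT, 14% held CATGTG and 5.36% held TAATTA. Trpv1 lies on the + strand at chr10:58349686-58349985 with 2 matches to TGTGGT, Avil on the + strand at chr7:64711153-64711452 with 1 match, Scn10a on the - strand at chr8:128340249-128340548 with no match to any of the 3 motifs, and Tyrp1 on the + strand at chr5:100326875-100327174 with 1 match to CATGTG that starts 67 bases before the start.
Trpv1: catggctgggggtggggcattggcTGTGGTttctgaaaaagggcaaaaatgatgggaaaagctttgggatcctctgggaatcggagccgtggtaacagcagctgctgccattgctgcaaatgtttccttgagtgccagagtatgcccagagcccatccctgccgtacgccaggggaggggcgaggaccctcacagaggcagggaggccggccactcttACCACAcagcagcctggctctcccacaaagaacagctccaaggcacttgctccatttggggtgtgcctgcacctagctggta
Avil: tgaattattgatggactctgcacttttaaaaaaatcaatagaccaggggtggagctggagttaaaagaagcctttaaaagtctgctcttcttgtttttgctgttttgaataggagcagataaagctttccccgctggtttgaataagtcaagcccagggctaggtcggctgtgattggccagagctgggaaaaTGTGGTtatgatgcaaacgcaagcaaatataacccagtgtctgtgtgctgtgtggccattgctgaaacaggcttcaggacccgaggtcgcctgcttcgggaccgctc
Scn10a: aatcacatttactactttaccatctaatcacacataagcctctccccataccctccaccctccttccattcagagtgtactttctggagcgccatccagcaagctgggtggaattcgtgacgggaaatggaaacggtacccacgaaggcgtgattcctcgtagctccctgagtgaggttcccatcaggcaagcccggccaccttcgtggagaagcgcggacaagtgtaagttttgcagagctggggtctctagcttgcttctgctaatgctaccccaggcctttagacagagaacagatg
Tyrp1: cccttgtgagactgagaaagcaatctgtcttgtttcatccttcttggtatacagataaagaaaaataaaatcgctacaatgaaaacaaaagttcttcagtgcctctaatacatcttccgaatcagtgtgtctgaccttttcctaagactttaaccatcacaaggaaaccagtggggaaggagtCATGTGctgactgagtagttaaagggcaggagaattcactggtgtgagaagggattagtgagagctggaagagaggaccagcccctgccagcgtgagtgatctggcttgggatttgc

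Peripheral myelin genes made up the most uniform group. Prx, a scaffold protein of myelinating Schwann cells, was at 5.69 and 4.49 FPKM in the controls and at 12.9 and 11.4 FPKM in the stimulated animals (log2 fold change 1.26 ± 0.17, SE). Ncmap, a protein of noncompact myelin, was at 3.67 and 3.01 FPKM against 9.20 and 8.73 FPKM (1.43 ± 0.15). Scn7a, a sodium channel that Schwann cells express, was at 2.71 and 2.16 FPKM against 7.88 and 7.81 FPKM (1.70 ± 0.17), and the tight junction gene Cldn19 was at 0.741 and 0.507 FPKM against 1.77 and 1.55 FPKM (1.43 ± 0.24). The groups were apart for each of these genes, and the 2 stimulated animals had closely similar values.

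Of the 14 tested members of the Schwann list, 13 were higher in both stimulated animals, 10 of them by at least 1.5-fold, against 2.63% of all genes for the latter. The median log2 fold change was 0.85, and 13 members had an unadjusted p under 0.05, but none passed adjustment. The exception was Sox10, which oligodendrocytes also express, at 23.7 and 19 FPKM against 19.6 and 21.4 FPKM. Central myelin genes of oligodendrocytes were near the background, with 3 of 22 members higher, 1 lower and a median log2 fold change of -0.06. The summed FPKM of the Schwann list was 244 and 201 in the controls and 436 and 432 in the stimulated animals.

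Fibroblast and meningeal genes were also higher, with more difference between the stimulated animals. Dcn, which encodes the matrix proteoglycan decorin, was at 21.4 and 25.1 FPKM in the controls and at 48.7 and 62.2 FPKM in the stimulated animals (log2 fold change 1.25 ± 0.17, SE). Col3a1, a fibrillar collagen, was at 10.5 and 7.73 FPKM against 20.1 and 49.7 FPKM (1.81 ± 0.49). Mfap5, a microfibril protein, was at 3.37 and 3.28 FPKM against 6.22 and 12.1 FPKM (1.38 ± 0.36), and Pi16, a marker of fibroblasts, was at 2.05 and 2.04 FPKM against 4.94 and 14 FPKM (2.02 ± 0.54). The groups were apart for all 4 genes, and stimulated 2 had the higher value of the pair. Col1a1 did not separate the groups, with 11.1 and 6.80 FPKM in the controls and 10.1 and 20.3 FPKM in the stimulated animals.

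The fibroblast list summed to 607 and 528 FPKM in the controls and to 657 and 908 FPKM in the stimulated animals, and its median log2 fold change was 0.48, or 0.24 without stimulated 2. Stimulated 2 also had the highest sum in both white matter regions, 698 FPKM in region 1, where the other 3 libraries had 294 to 394 FPKM, and 448 FPKM in region 2, where the others had 129 to 150 FPKM. Within the stimulated pair, stimulated 2 was above stimulated 1 in 16 of the 18 fibroblast members that were higher and in 13 of the 16 sensory members, with median ratios of 1.28 and 1.27. For the Schwann list this was so in 3 of 13 members, with a median ratio of 0.958. Blood and red cell genes were also higher on average, with a median log2 fold change of 0.86 over 8 tested members, all of them positive. Of these, 3 were higher in both stimulated animals and 0 lower, against 18.5% and 6.07% of all genes. The sums of the list overlapped, at 30.9 and 17.5 FPKM in the controls and 50.6 and 27.9 FPKM in the stimulated animals. Hbb, the beta chain of hemoglobin, overlapped at 14.2 and 7.25 FPKM against 23 and 9.96 FPKM, and S100a9, a neutrophil protein, was apart at 2.05 and 0.758 FPKM against 3.62 and 3.44 FPKM. Schwann, meningeal and some blood genes were thus higher in the same libraries as the sensory genes, and their part in the values of Trpv1 and the other nociceptor genes was not tested.

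**Figure D3:**
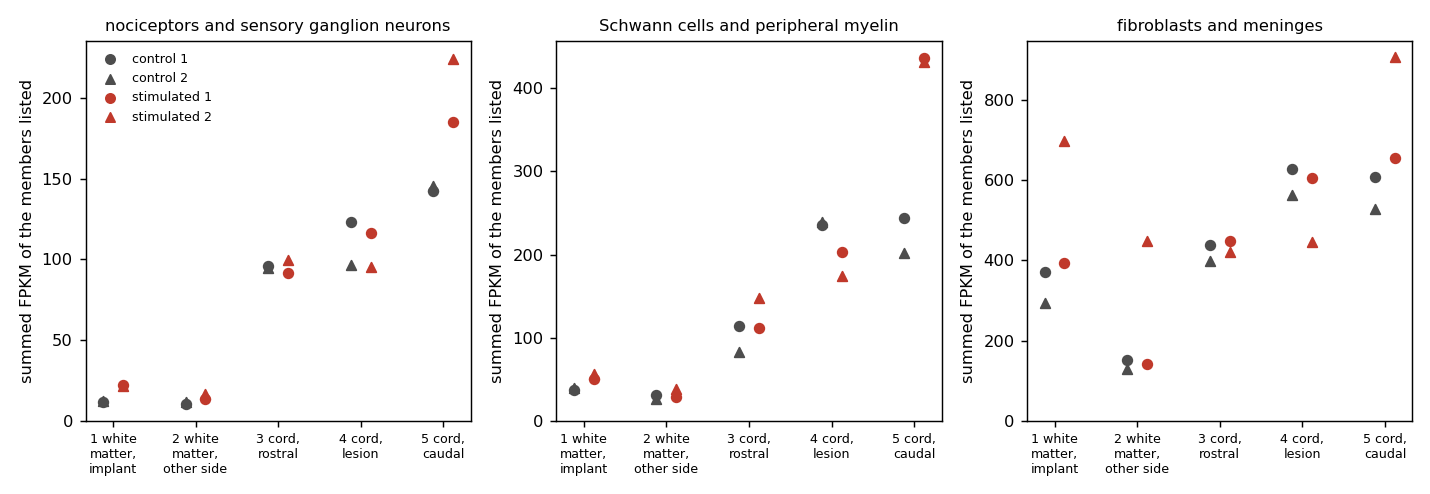
Summed FPKM (y axis) of the sensory neuron, Schwann cell and fibroblast lists in all 20 libraries by region (x axis), with controls in grey, stimulated animals in red, circles for replicate 1 and triangles for replicate 2. In region 5 the Schwann sums of the stimulated animals, 436 and 432, lie above all other libraries, and stimulated 2 has the highest fibroblast sums in regions 1, 2 and 5.

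Several other genes with the largest differences were at or near the floor in the controls. Tmem233, which encodes a membrane protein, was at 0.1 FPKM in both controls and at 2.42 and 4.77 FPKM in the stimulated animals, at least 24.2-fold and 47.7-fold higher, and at 0.1 FPKM in the other 18 libraries. Mrgprb4, a receptor of a family found in sensory neurons, was at 0.1 FPKM in both controls and at 0.847 and 2.49 FPKM in the stimulated animals. Acpp, the acid phosphatase used as a marker of nociceptors, was at 0.1 FPKM in both controls against 0.752 and 1.67 FPKM, but it reached 0.938 FPKM at the lesion. Ppp1r1c, a protein phosphatase inhibitor, was at 0.551 and 0.110 FPKM against 3.79 and 4.96 FPKM. Aspn, a matrix proteoglycan, was at 0.227 and 0.146 FPKM against 1.01 and 4.6 FPKM, and Pla2g2a, a secreted phospholipase, was at 0.1 FPKM in both controls against 0.946 and 1.63 FPKM. All 6 reached 1 FPKM in the stimulated caudal cord alone and entered the test in that way. None of them passed in region 5, while Tmem233, Mrgprb4 and Ppp1r1c passed in the limma model of all 20 libraries, with adjusted p-values of 0.00201, 0.0325 and 0.0318. That model treats the libraries of an animal as independent.

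Tyrp1, a melanin synthesis enzyme of pigment cells, was the only gene that rose. It was at 0.1 FPKM in both controls and at 2.90 and 2.74 FPKM in the stimulated animals, at least 29.0-fold and 27.4-fold higher, with an adjusted p of 0.0192 (limma). Elsewhere it was at most 0.134 FPKM, so it too entered the test through the group where it was high, as 1 of 88 genes that reached 1 FPKM in the stimulated caudal cord alone. Both control values were at the floor and so had no measured spread, and the call was lost in 7 of 19 alternatives, among them log2(FPKM + 1), where the adjusted p was 0.0582. The rest of the pigment list did not follow: of its other 8 tested members 1 was higher and 2 lower, against 18.5% and 6.07% of all genes. Pmel, a melanosome protein, was at 2.77 and 2.29 FPKM in the controls and 2.41 and 2.65 FPKM in the stimulated animals. The 2 lower genes that passed adjustment were the long non-coding RNAs LOC102553254 and AABR07058420.1. They were at 0.546 and 0.543 FPKM and at 0.411 and 0.399 FPKM in the controls and at 0.1 FPKM in both stimulated animals. Each call was lost in 10 alternatives.

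Among immune genes, those of class II antigen presentation were higher in both stimulated animals. RT1-Bb, a class II MHC chain, was at 2.54 and 2.41 FPKM in the controls and at 5.85 and 5.14 FPKM in the stimulated animals (log2 fold change 1.15 ± 0.15, SE). RT1-Ba was at 10.2 and 6.76 FPKM against 17.4 and 14.3 FPKM (0.92 ± 0.25), RT1-Db1 at 4.99 and 3.98 FPKM against 8.13 and 7.21 FPKM, and RT1-Da at 16 and 12.1 FPKM against 22.3 and 21.1 FPKM. Cd74, the invariant chain that assembles with them, was at 71.4 and 39.8 FPKM against 88.6 and 75.3 FPKM. All 5 were higher in both stimulated animals, and none of the 5 passed the test. Their log2 fold changes were also positive rostral to the lesion, between 0.66 and 1.01, and at the lesion, between 0.27 and 0.73. The RT1 genes are a family of similar sequences, so fragments may have been divided among them. Class I genes such as RT1-A2, at 24 and 16.1 FPKM against 18.2 and 24.4 FPKM, overlapped, and in the whole list 9 of 19 tested members were higher and 1 lower, with a median log2 fold change of 0.16.

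Among genes of phagocytes, 10 of 30 were higher and 1 lower, with a median log2 fold change of 0.22. The shares of all genes, here and for the lists that follow, were 18.5% higher and 6.07% lower. Mrc1 and Cd163, receptors of border-associated macrophages, were at 2.54 and 2.91 FPKM against 4.21 and 4.47 FPKM and at 2.63 and 2.47 FPKM against 3.91 and 4.05 FPKM. The lesion markers Gpnmb and Lgals3 overlapped, at 78.7 and 80.5 FPKM against 78.0 and 122 FPKM and at 190 and 177 FPKM against 166 and 182 FPKM. For complement 9 of 23 members were higher and 0 lower, with a median of 0.30, among them Cd55, an inhibitor of complement on cell surfaces, at 1.64 and 1.25 FPKM against 2.82 and 4.59 FPKM. For chemokines and cytokines 12 of 34 were higher and 1 lower, with a median of 0.24 and with Ccl4, a macrophage chemokine, at 1.62 and 1.32 FPKM against 2.48 and 2.5 FPKM. Interferon-induced genes stayed below the background, with 2 of 30 higher and 0 lower.

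The reactive astrocyte list had 11 of 26 members higher and 1 lower, against 18.5% and 6.07% of all genes. Among the members without overlap, the difference was largest in Fbln5, at 0.713 and 0.733 FPKM against 1.45 and 2.16 FPKM, and S100a6, at 45.2 and 40.1 FPKM against 74.6 and 91.8 FPKM, genes of a matrix protein and a calcium-binding protein that fibroblasts also express. Gfap, the intermediate filament that defines astrocytes, overlapped at 1945 and 1754 FPKM against 1888 and 2051 FPKM, as did Vim at 205 and 157 FPKM against 182 and 227 FPKM. Homeostatic astrocyte genes had 3 of 21 members higher and 0 lower. Pericyte and smooth muscle genes had 8 of 15 higher and 0 lower, none by 1.5-fold or more, and endothelial genes 3 of 22 higher and 1 lower.

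Genes of synaptic transmission leaned the other way, by small amounts. Of 28 tested genes of glycine and GABA transmission, 9 were lower in both stimulated animals and 2 higher, with a median log2 fold change of -0.10. Slc6a5, the glycine transporter of inhibitory neurons, was at 37.3 and 36.3 FPKM in the controls and at 29.0 and 30.9 FPKM in the stimulated animals (log2 fold change -0.30 ± 0.08, SE). Gad1, which makes GABA, was at 18.7 and 16.7 FPKM against 14.5 and 14.7 FPKM (-0.28 ± 0.10). Of 33 genes of glutamate transmission, 11 were lower and 3 higher, and Shank1, a scaffold of excitatory synapses, was at 5.27 and 4.88 FPKM against 3.54 and 4.01 FPKM (-0.43 ± 0.14). Of 39 sodium and potassium channel genes, 9 were lower and 2 higher, with Kcnc1, a channel of fast-firing neurons, at 14.6 and 13.3 FPKM against 9.93 and 11.9 FPKM. None of these genes passed the test, and no member of these 3 lists was lower by 1.5-fold or more without overlap, against 0.559% of all genes. In region 3, 8, 16 and 17 members of the 3 lists were lower, against 24.7% of all genes, and 1, 1 and 0 higher, against 5.14%. At the lesion 14, 15 and 24 members were higher, against 12.5% of all genes, and 0, 1 and 0 lower, against 7.69%.

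The caudal shares of these 3 lists depend on scaling. After quantile normalization 19, 17 and 16 members of the 3 lists were lower, against 20.3% of all genes. An opposite value within the glutamate list was that of Slc17a7, a vesicular glutamate transporter that sensory afferents also use, at 0.977 and 0.729 FPKM in the controls and 2.13 and 2.45 FPKM in the stimulated animals (log2 fold change 1.44 ± 0.21). Its level in the white matter samples, 225 to 329 FPKM, was far above that in the cord.

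Lists that bear on neuronal activity and repair had small median differences, the largest 0.13. Of immediate early genes 41.4% were higher and of neurotrophic factors and receptors 30.8%, against 18.5% of all genes. Axon regeneration genes were close to that background, at 19.2%. Of 29 immediate early genes, which neurons induce on firing, 12 were higher and 1 lower, with a median log2 fold change of 0.12, and Fos was at 7.37 and 6.63 FPKM in the controls and 7.59 and 7.63 FPKM in the stimulated animals. Arc overlapped, at 1.74 and 1.47 FPKM against 1.38 and 1.82 FPKM. Of 26 neurotrophic factors and receptors, 8 were higher and 1 lower, and those that were higher included Ngfr, the low-affinity neurotrophin receptor that Schwann cells express (2.47 and 2.14 FPKM against 3.62 and 5.32 FPKM). Bdnf, brain-derived neurotrophic factor, was at 0.581 and 0.674 FPKM against 0.704 and 0.769 FPKM. Of 26 genes linked to axon regeneration, 5 were higher and 0 lower, and both Gap43 and Atf3 overlapped.

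Motor neuron genes had 6 of 15 members higher and 2 lower, with a median log2 fold change of 0.00. The shares of all genes, here and for the lists that follow, were 18.5% higher and 6.07% lower. The motor neuron members that were higher included Isl1, Isl2, Prph and Calca, described above with the sensory neurons. Isl1 and Isl2 entered the test through the stimulated caudal cord alone, and of the other 13 members 4 were higher and 2 lower. Of 27 neuropeptide genes 7 were higher and 2 lower, with the largest difference in Nmb, which encodes neuromedin B, at 0.280 and 0.426 FPKM against 0.935 and 1.30 FPKM. Oligodendrocyte progenitor genes had 0 of 17 members higher and 1 lower, and respiratory chain subunits 2 of 41 higher and 0 lower. Skeletal muscle genes, which would mark tissue taken with the cord, had 1 of 13 members higher and 4 lower in region 5, but 11 higher in region 3.

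The caudal differences were compared with those rostral to and at the lesion in the same animals. In region 3 both stimulated animals were above both controls for 5.14% of genes and below for 24.7%, and at the lesion for 12.5% and 7.69%. The sensory neuron list had 2 of 18 members higher in region 3 and 4 in region 4, the Schwann list 5 and 0 of 14, and the fibroblast list 6 and 0 of 28. Of the 18 sensory members, 7 reached 1 FPKM in the stimulated caudal cord alone, so they were under it in regions 3 and 4 by the filter. In region 3, 3 sensory, 1 Schwann and 3 fibroblast members were lower. At the lesion 0 sensory, 8 Schwann and 20 fibroblast members were lower. The difference between the caudal effect and the rostral effect, fitted by limma within animals, passed adjustment for 2 of 15210 genes (0.0131%) and that between the caudal and lesion effects for 1 (0.00657%).

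At an unadjusted p under 0.05, the caudal effect exceeded the rostral effect in 5 of 14 Schwann and 11 of 28 fibroblast members, against 2% of all genes, and no member of these lists was below it, against 0.342%. It exceeded the lesion effect in 12 and 14 members, against 2.54% of all genes, and was below it in 0, against 0.5%. No member of these lists passed adjustment in either comparison. Both lists were singled out by their caudal values, which also enter these differences, so the counts are a description. For the sensory list, the 7 members that entered the test through the stimulated caudal cord were left out, since the filter favours a larger effect there. Of the other 11, the caudal effect exceeded the rostral effect in 3, against 1.76% of the 15122 genes that did not enter in that way, and the lesion effect in 2, against 2.31%. It was below them in 0, against 0.344% and 0.503%, and all adjusted p-values of these 11 were 1 by limma. For Trpv1, which is among the 7, the unadjusted p-values were 0.00201 and 0.00859 and both adjusted p-values were 1. Among the class II genes and Cd74, RT1-Bb had the lowest unadjusted limma p, 0.0272 against the lesion, and an adjusted p of 1.

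**Figure D4:**
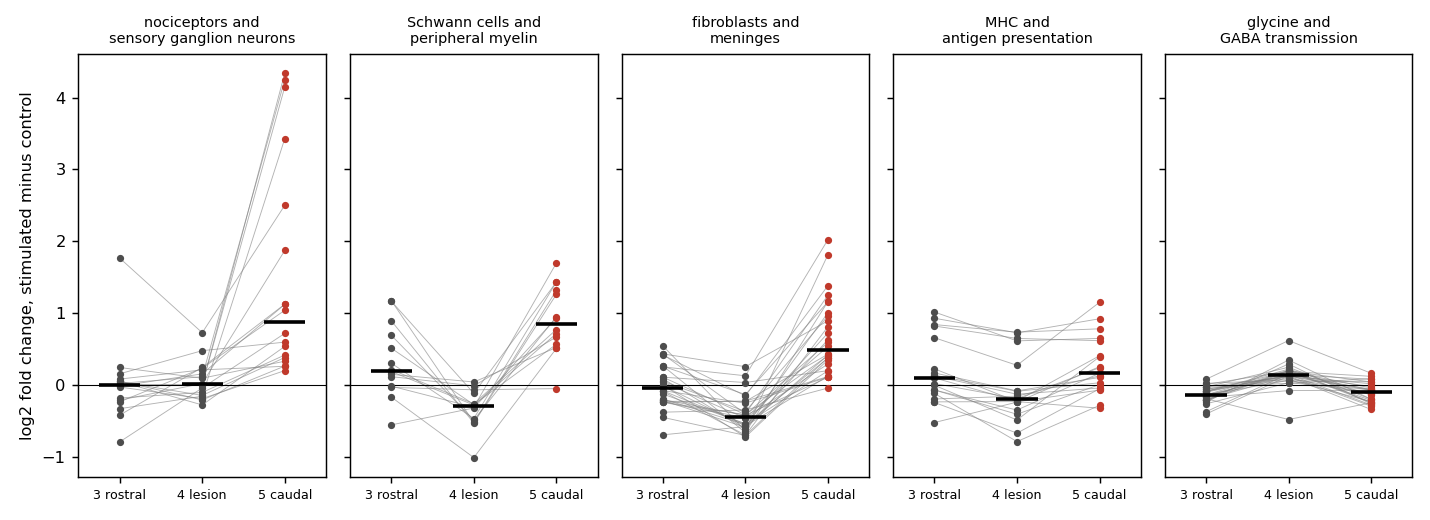
Log2 fold change of stimulated minus control animals (y axis) in the rostral cord, the lesion and the caudal cord (x axis) for the tested members of 5 lists; points are genes, thin lines join a gene across regions and thick bars are medians. Sensory neuron genes have medians near 0 in regions 3 and 4 and of 0.88 in region 5, or 0.42 without the 7 that entered through the stimulated caudal cord, and fibroblast genes go from -0.44 at the lesion to 0.48 in the caudal cord.

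Some of the largest differences occurred in every region of the same animals. Fjx1, which encodes a secreted signalling protein, was at 11.8 and 5.81 FPKM in the controls and at 0.192 and 0.125 FPKM in the stimulated animals. Its log2 fold change was -5.74 in region 5 and between -5.88 and -6.24 in the other 4. The stimulated animals never exceeded 0.347 FPKM in any region, and the controls never went below 5.58 FPKM. Fjx1 did not pass the limma test in region 5 alone but had an adjusted p of 0.000333 in the model of all 20 libraries. That model treats the libraries of an animal as independent, though control 1 was above control 2 in every region. Cidea, a lipid droplet protein named after its values were seen, was at 1.98 and 1.18 FPKM against 6.95 and 9.55 FPKM, and its log2 fold change was between 1.69 and 2.41 in the 5 regions. In all, 21 genes were higher and 11 lower in both stimulated animals in every region. Since the same 2 animals gave every stimulated library, a difference between animals and an effect of stimulation cannot be told apart for these genes. With 2 animals a side, the same holds for the genes that differed in region 5 alone.

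**Figure D5:**
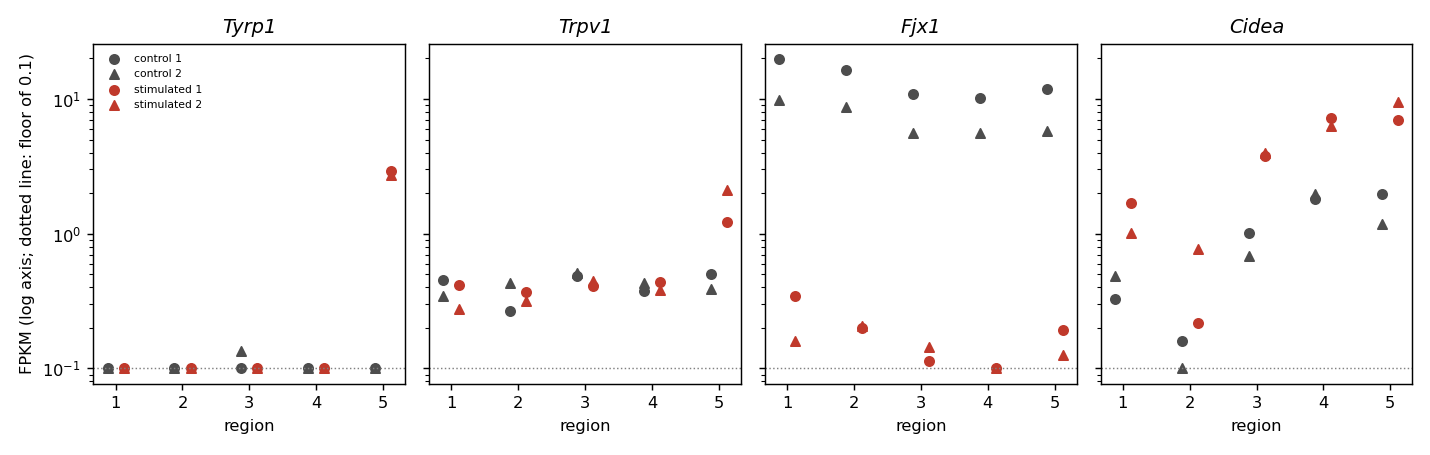
FPKM (y axis, log scale) of Tyrp1, Trpv1, Fjx1 and Cidea in all 20 libraries by region (x axis), with controls in grey, stimulated animals in red, circles for replicate 1 and triangles for replicate 2. Tyrp1 and Trpv1 are higher in both stimulated animals in region 5, the Trpv1 values of the stimulated animals lie just below those of the controls in region 3, and Fjx1 is lower and Cidea higher in the stimulated animals in every region.

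Chd9, a chromatin remodeller, had the largest difference among lower genes of high expression, at 125 and 153 FPKM in the controls and 57.1 and 14.8 FPKM in the stimulated animals (log2 fold change -2.25). It was lower in regions 1 and 3 too, at 15.3 to 17.2 FPKM and 14.3 to 15.1 FPKM in the stimulated animals, and the groups overlapped in regions 2 and 4. Other low values in the stimulated animals were those of Gm8444, at 5.63 and 1.14 FPKM against 0.1 and 0.985 FPKM, Zfp664, a zinc finger gene, at 5.11 and 2.42 FPKM against 0.892 and 2.36 FPKM, and Nkain3, at 1.5 and 1.38 FPKM against 0.531 and 0.878 FPKM. For Gm8444 and Zfp664 the values of control 2 and stimulated 2 lay close together, and none of these 4 genes passed the test.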

How the data were processed

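RNA of 5 regions of 4 rats was sequenced, and the authors deposited 1 table of FPKM values per gene and library, made with TopHat2 2.1.0 and Cufflinks 2.2.1 per the processing notes, with MultiQC 1.6 for quality control, on ribosomal-depleted total RNA aligned to Rnor6. Values below 0.1 FPKM had already been raised to 0.1 in the table. FPKM carries no fragment counts, so the depth behind a single value is unknown, a ratio to 0.1 FPKM is a lower bound, and precision comes from the spread between 2 animals a side alone. The kit was stranded, but the strand used in counting is not given in the sources used here, so overlapping and antisense genes are uncertain.

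For this comparison FPKM was floored at 0.1 and log2-transformed, and the 15210 genes of 30443 with at least 1 FPKM in any library were kept. limma 3.58.1 in R 4.3.3 (lmFit, eBayes with trend) was fitted to the 4 libraries of region 5, without a replicate block. Differences of effects between regions were fitted to within-animal differences. Benjamini-Hochberg adjustment ran over all 15210 genes, and an adjusted p under 0.05 was called. Lists were described by counts and medians without a set test. The scripts were tested on simulated data. Figures and tables used Python 3.11.15, pandas 2.3.3 and matplotlib 3.10.9. Promoters are those of RefSeq on GRCr8, a later build than Rnor6, so no other coordinates are given. No column was left without a sample, and the labels name separate animals as replicates.

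The gene lists and the comparison were chosen with earlier results of these data known. Named genes were Trpv1, the genes past the threshold, the 10 largest differences in each direction without overlap where either group averaged 1 FPKM or more, up to 4 members per list by the same conditions, and the first 2 members of each list. Of repeated symbols, the entry most expressed over the 20 libraries stands for the gene. RT1-A2, Sox10 and Cidea are named outside this rule, after their values were seen, and some genes it selects are not reported here. Alternatives were other floors and pseudocounts, filters, scalings, limma settings, models of more libraries, a block for the replicate number, 1 entry per symbol, and leaving out each animal. Same-numbered animals were checked for shared deviations in region 5, with a correlation of -0.16. With 2 animals a side the crossed pairing must give the opposite value, 0.16. This check therefore cannot show whether the numbers pair the animals.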

Additional observations from a re-analysis of the deposited data

Results flagged for a closer look

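The difference between stimulated and control animals was itself different between regions for 2 of the genes described, by limma on within-animal differences with Benjamini-Hochberg adjustment. For Tyrp1 the caudal effect exceeded the rostral effect by 5.03 ± 0.20 (SE) on the log2 scale (adjusted p = 0.0430) and the effect at the lesion by 4.82 ± 0.16 (adjusted p = 0.0201), and both stimulated animals were above both controls in region 5. All libraries of the other regions were at or near the floor of 0.1 FPKM, and Tyrp1 entered the test only through its stimulated caudal values, so the filter favoured these differences. For the long non-coding RNA AABR07058420.1 the caudal effect minus the rostral effect was -3.98 ± 0.14 (adjusted p = 0.0430). In region 3 both stimulated animals were above both controls, and in region 5 both were at 0.1 FPKM, with no value above 1.04 FPKM in any library. The region 3 controls were also at the floor, so these values had no measured spread. At the lesion, controls ran from 0.1 to 0.770 FPKM and stimulated animals from 0.1 to 1.04 FPKM. No gene was examined for a sample far from the others, since groups of 2 do not allow it.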

How the results depend on the processing

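With 2 animals a side the number of genes past the threshold moved with nearly every setting, while the medians of the leading lists stayed positive. With every animal kept, the sensory neuron list had 15 to 22 members higher, the Schwann list 12 to 14 and the fibroblast list 17 to 23. These counts rest on the order of values, so log2(FPKM + 1) cannot change them. Leaving out an animal can only keep or raise them. None of the 55 gene values checked changed sign. Groups that do not overlap, as in most of these genes, cannot reverse when an animal is left out. In region 5, 3 genes passed the test. This became 0 (566 at an unadjusted p under 0.05) with log2(FPKM + 1), 0 (538) with a floor of 1 FPKM, 0 (1347) with upper-quartile scaling, 1 without a trend, 22 without a filter, 255 with at least 1 FPKM in region 5, 235 with robust eBayes, 18 in the model of all 20 libraries, 19 with the correlation of an animal added, 19 in the model of the 12 cord libraries, and 0 to 147 without each animal (0 without either control, at 613 and 452 unadjusted, 147 without stimulated 1 and 119 without stimulated 2). An arm left with 1 animal was assumed to vary like the other.

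Genes whose groups did not overlap numbered 3742, 75.3% of them higher, and 5891 (47.5% higher) after quantile normalization, 6215 after upper-quartile scaling and 8188 to 10719 without each animal (87.2% and 38.2% higher without control 1 and control 2, 83.2% and 47.9% without stimulated 1 and stimulated 2, so that the balance turned without either second animal). Those also at least 1.5-fold apart numbered 485, and 165 with log2(FPKM + 1), 220 with a floor of 1 FPKM, 1055 without a filter and 824 to 959 without each animal. The sensory median of 0.88 became 0.45 with log2(FPKM + 1), 0.48 with a floor of 1 FPKM, 1.12 without a filter and 0.66 to 1.11 without each animal. The Schwann median of 0.85 became 0.66, 0.70 and 0.93 in the same order, 0.93 with at least 1 FPKM in region 5, and 0.74 to 0.95 without each animal. The fibroblast median of 0.48 was 0.24 without stimulated 2, 0.71 without stimulated 1, 0.35 without control 2 and 0.68 without control 1.

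The difference from region 3 passed for 2 genes, and for 1 with log2(FPKM + 1), 0 (481 unadjusted) with a floor of 1 FPKM, 10 without a filter, 4 with 1 FPKM in 2 libraries, 119 with at least 1 FPKM in region 5, 0 (491) after quantile normalization, 0 (470) after upper-quartile scaling, 0 (406) without a trend, 115 with robust eBayes and 16 to 25 without each animal. The difference from region 4 passed for 1 gene, and in the same order for 2, 0 (454), 5, 6, 208, 0 (1244), 0 (1267), 0 (478), 215 and 0 to 324 (0 without stimulated 2, with 2702 unadjusted, and 324 without control 2). The cause of these shifts was not tested.

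The labels give no link between same-numbered animals beyond the number. With the number as a replicate block, 443 genes passed in region 5 (322 higher and 121 lower), and 297 and 436 for the differences from regions 3 and 4. With the crossed block, chosen after seeing the data, 0 passed in each (1429, 761 and 527 unadjusted).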
